A study of Mus musculus with 8 samples.

Results

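The genes described are the 10 that set the pace of the G1 phase: the D-type cyclins Ccnd1, Ccnd2 and Ccnd3, their kinases Cdk4 and Cdk6, the CIP/KIP inhibitors Cdkn1a (p21) and Cdkn1b (p27), the INK4 inhibitors Cdkn2c (p18) and Cdkn2d (p19), and the pocket protein gene Rb1. They were taken by symbol from the 24411 genes of the deposited tables. All 10 were found, and all 10 were among the 13177 genes that passed the filter on low counts. The marrow came from wild-type C57BL/6 mice. Common myeloid progenitors, from which granulocytes, monocytes, red cells and megakaryocytes arise, were sorted into 4 fractions, and each gave 2 RNA libraries. All fractions shared the gate KIT+ CD16/32-. CD34bright cells were CD41+ CD9+, and the remaining fractions were all CD34dim. Of these, CD41/CD9-negative cells lacked both markers, whereas CD48bright and CD48dim cells carried both and differed in CD48. No agent, transgene or deletion is named for any of them, and no age is given. Whether the paired libraries of a fraction stem from different animals or sorts is not stated, so that each p-value reflects the spread between libraries, which may be technical.

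A cell that receives growth signals makes D cyclins, which bind CDK4 or CDK6. The complexes phosphorylate the RB protein, which then lets go of the E2F factors that switch on the genes of DNA replication. INK4 proteins bind CDK4 and CDK6 directly and keep the cyclin out, while CIP/KIP proteins bind whole cyclin and kinase complexes and block cyclin E with CDK2. In mouse bone marrow, D cyclins and CDK6 are needed for the expansion of progenitors, and p21, p27 and p18 are known restraints on the division of stem and progenitor cells. Much of this control acts on the proteins, through phosphorylation and degradation, which RNA levels do not show.

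The messages that were lower in both CD48dim libraries than in every other library were those of Cdk4, Cdkn1a and Cdkn2c, a kinase and 2 of its inhibitors. The start-site windows of Cdk4 and Cdkn1a are printed because each holds a short motif that few promoters of the same length hold. RefSeq windows (GRCm38.p6, 250 bases before to 50 after a start site) were found for 7 of the 10 genes. Capitals mark CACGTG, the E-box bound by MYC and its relatives, in the Cdk4 window. In the Cdkn1a window they mark the core pair of a p53 site, which is CATG followed after 6 bases of any kind by CATG.
Cdk4 (chr10:127063285-127063584, plus strand): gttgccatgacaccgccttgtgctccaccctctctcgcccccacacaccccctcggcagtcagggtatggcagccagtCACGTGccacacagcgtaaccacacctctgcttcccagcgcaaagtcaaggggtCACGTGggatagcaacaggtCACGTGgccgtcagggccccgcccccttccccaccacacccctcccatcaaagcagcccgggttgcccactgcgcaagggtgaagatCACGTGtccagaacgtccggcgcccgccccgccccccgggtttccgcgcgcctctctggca
Cdkn1a (chr17:29090729-29091028, plus strand): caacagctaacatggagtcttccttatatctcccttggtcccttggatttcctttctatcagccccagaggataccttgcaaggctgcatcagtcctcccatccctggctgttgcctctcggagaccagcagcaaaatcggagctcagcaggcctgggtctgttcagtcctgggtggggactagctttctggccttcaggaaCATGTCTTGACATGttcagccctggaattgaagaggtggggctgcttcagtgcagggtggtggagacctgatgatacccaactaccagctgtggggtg
The Cdk4 window holds 4 copies of CACGTG, at -172, -118, -98 and -11 from the start site. CACGTG reads the same on both strands. At least 1 copy was found in 7.15% of 32851 promoter windows and 4 or more in 0.0244%, which is 8 windows. The Cdk6 window and 1 of the Cdkn2c windows hold a single copy. The p53 core pair, which also reads the same on both strands, occurs in 0.712% of windows and, among the windows of these genes, in the upstream Cdkn1a window alone, at -48. A second Cdkn1a start site lies 2790 bases downstream, and its window lacks these letters. The E2F letters TTTGGCGC or TTTCCCGC, on either strand, occur in 1.565% of windows and in none of the windows of these genes. A match of letters is a description and not a measured binding site.

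The libraries held 7237587 to 20632005 expected counts, and the 10 genes had 53 to 12170 counts per library. Levels are given as CPM, counts per 1000000 of the scaled total of tested genes in a library. The test was the quasi-likelihood F-test of edgeR, with p-values adjusted over all 13177 genes by Benjamini and Hochberg's method, and a gene was called at an adjusted p below 0.05. The sorted markers followed the gates in part. Cd48 lay at 157 to 246 CPM in the 6 libraries of the other populations and at 35.8 and 16.9 CPM in CD48dim. In Cd48, CD48bright (179 and 229 CPM) overlapped CD34bright and CD41/CD9-negative. Itga2b, which encodes CD41, lay at 2.83 and 2.18 CPM in CD41/CD9-negative, against 64.3 to 155 CPM elsewhere. Cd34 was highest in CD34bright, at 510 and 461 CPM, but reached 396 CPM in CD41/CD9-negative replicate 2 and 397 CPM in CD48bright replicate 2. Elsewhere it had 166 to 239 CPM. Fcgr3, which encodes a receptor that all fractions were gated against, lay at 3.02 to 87.3 CPM, highest in CD48bright replicate 1. Spearman's correlation across genes between the libraries of a population was 0.954 to 0.976 in the others and 0.836 in CD48dim. Of 10 genes of mature neutrophils, 9 had a negative log2 fold change over CD48dim for CD34bright, for CD41/CD9-negative and for CD48bright. None was at 0 in any library, and their summed level was 131 and 166 CPM in CD34bright, 702 and 49.9 CPM in CD41/CD9-negative, 157 and 115 CPM in CD48bright and 4175 and 625 CPM in CD48dim. Among the neutrophil genes, Cxcr2 went the other way for CD34bright and for CD48bright. It had 55.8 and 86.9 CPM in CD34bright, 26.8 and 43.9 CPM in CD48bright, and 11.1 and 11.3 CPM in CD48dim. The 7 erythroid genes summed to 6.63 to 34.4 CPM in the other libraries and to 261 and 40.2 CPM in CD48dim. The 6 platelet genes summed to 24.9 to 82.1 CPM in the other libraries and to 156 and 164 CPM in CD48dim. The 6 mature lymphocyte genes were highest in CD41/CD9-negative, at 94.8 and 66.4 CPM, against 11.5 to 47.9 CPM elsewhere. Whether these messages came from other cells or from the sorted progenitors was not tested, nor was their part in the results below. In bulk RNA, fewer cells of a type and less RNA per cell cannot be told apart.

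Across the 4 populations, the test of any difference called 0 of the 10 genes with edgeR, where it called 2.44% of all genes. At an unadjusted p below 0.05, 5 of the 10 passed, against 16.8% of all genes. DESeq2 called Ccnd1, Cdk4, Cdkn1a and Cdkn2c, with 13% of all genes called, and limma-voom called none, with 1.07%. A fit with a replicate block, a term for the library numbers 1 and 2, called Ccnd1 and Cdkn1a, with 5.8% of all genes called. It is set beside the results because libraries of the same number deviated together. Without CD48dim replicate 1 the count was 7 of 10, with 24.7% of all genes called, and without CD48dim replicate 2 it was 2, with 9.11%.

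**Figure D1:**
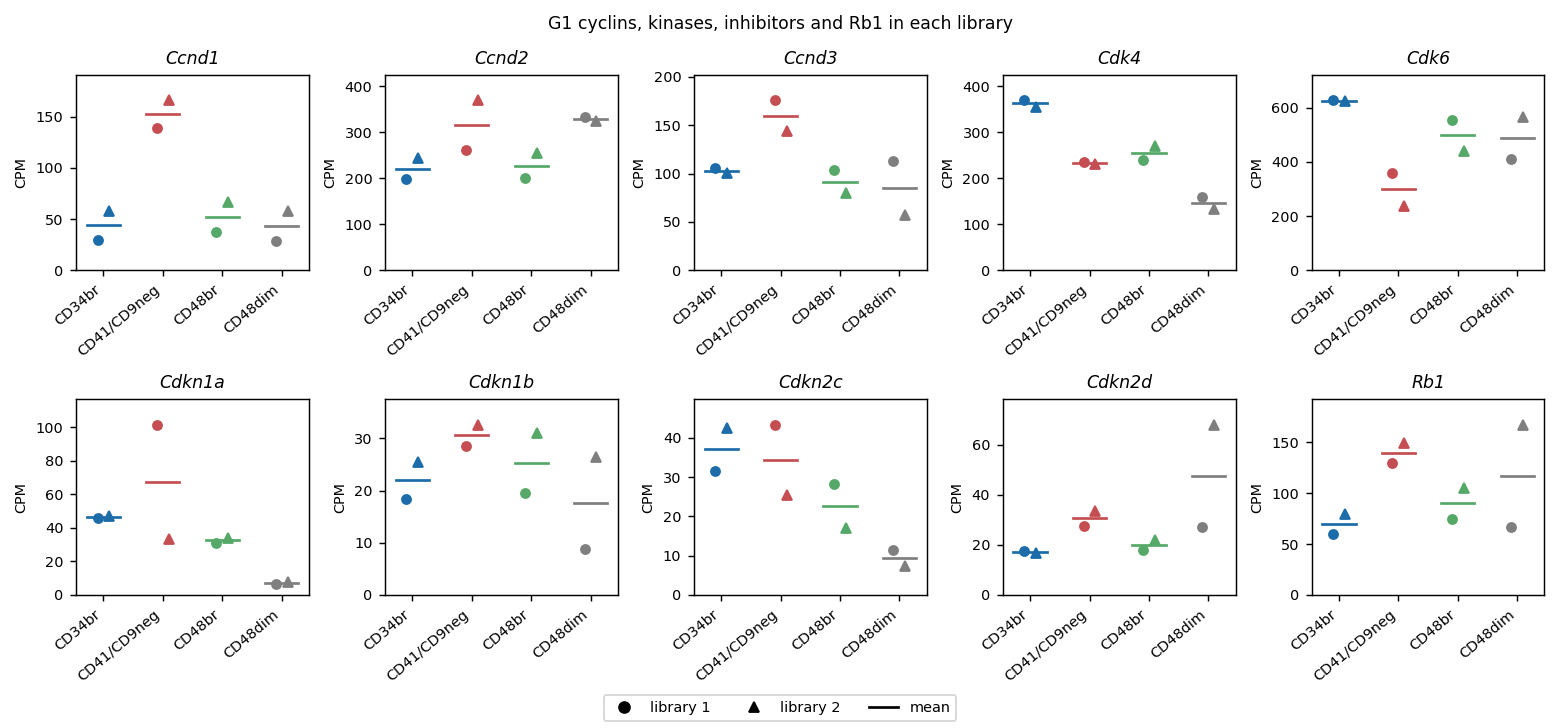
Level of each gene in CPM (vertical axes, from 0) in the 8 libraries, with circles for the library numbered 1, triangles for that numbered 2 and bars for their mean. CD34br is CD34bright, CD41/CD9neg is CD41/CD9-negative and CD48br is CD48bright. Cdkn1a, Cdkn2c and Cdk4 are lowest in both CD48dim libraries, and Ccnd1 is highest in both CD41/CD9-negative libraries.

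Among the D cyclins, Ccnd1 was set apart by the CD41/CD9-negative population. Ccnd1 (chromosome 7, 144929931 to 144939925, minus strand, GRCm38) had 30.0 and 57.8 CPM in CD34bright, 138 and 166 CPM in CD41/CD9-negative, 36.9 and 66.3 CPM in CD48bright, and 28.8 and 58.0 CPM in CD48dim. Both CD41/CD9-negative libraries lay above all others, and the other populations overlapped one another. The log2 fold change of CD41/CD9-negative over CD48dim was 1.81 ± 0.49 (SE) and did not pass (adjusted p = 0.0805, edgeR), but did with the replicate block (adjusted p = 0.0081), with DESeq2, with limma-voom, with no filter on low counts and with either CD48dim library left out. It did not pass in a fit of the 4 libraries of the pair alone (adjusted p = 0.166, edgeR), and with a library of another population left out the adjusted p was 0.0910 to 0.351. CD34bright over CD41/CD9-negative was -1.80 ± 0.49, with an adjusted p of 0.171 from edgeR and of 0.0211 with the block. CD41/CD9-negative over CD48bright was 1.56 ± 0.49, with an adjusted p of 0.353 from edgeR and of 0.0537 with the block. Over all populations the adjusted p of Ccnd1 was 0.113 with edgeR and 0.0119 with the block. The libraries carry no strand information, and 1100 of the 4709 exon bases of Ccnd1 lie across from exons of Oraov1. Oraov1 had 15.0 and 11.4 CPM in the CD41/CD9-negative libraries, where Ccnd1 was highest, and its level elsewhere ranged from 4.67 to 37.4 CPM.

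Ccnd2 (chromosome 6, 127125162 to 127152193, minus strand), a D cyclin that answers to cytokine signals in blood cells, had 198 and 243 CPM in CD34bright, 261 and 370.2 CPM in CD41/CD9-negative, 200.05 and 254 CPM in CD48bright, and 333 and 324 CPM in CD48dim. The order of means ran from CD48dim through CD41/CD9-negative and CD48bright to CD34bright, and CD48dim overlapped CD41/CD9-negative while CD48bright overlapped CD34bright. The test of any difference gave an adjusted p of 0.572 (edgeR).

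Ccnd3 (chromosome 17, 47505051 to 47599691, plus strand), the D cyclin known for its part in the growth of red cell and lymphocyte precursors, had 106 and 100.1 CPM in CD34bright, 176 and 144 CPM in CD41/CD9-negative, 104 and 79.7 CPM in CD48bright, and 113 and 57.6 CPM in CD48dim. Both CD41/CD9-negative libraries were again the highest, and the other 3 populations overlapped. CD41/CD9-negative over CD48dim was 0.90 ± 0.38 on the log2 scale and did not pass (adjusted p = 0.228, edgeR), and the test over all populations gave an adjusted p of 0.453. On the other strand, exons of Bysl cover 361 of 8775 exon bases of Ccnd3. Of the 10 genes, Ccnd1 and Ccnd3 were highest in both CD41/CD9-negative libraries, a pattern that 8.1% of all genes had.

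Between genes, levels can be compared per length, and the deposited TPM values serve for that. Ccnd3 and Ccnd2 together made up most of the D cyclin TPM in every library. The share of Ccnd1 was 8.01% and 13.8% in CD34bright, 20.8% and 23.8% in CD41/CD9-negative, 9.74% and 16.9% in CD48bright, and 6.09% and 15.1% in CD48dim. The share of Ccnd2 was 34.0% and 37.3% in CD34bright, 25.2% and 34.1% in CD41/CD9-negative, 33.9% and 41.7% in CD48bright, and 45.2% and 54.4% in CD48dim. The CD48dim libraries had the highest Ccnd2 shares, and the CD41/CD9-negative libraries the highest Ccnd1 shares. The summed D cyclin TPM per summed TPM of Cdk4 and Cdk6 was 0.170 and 0.195 in CD34bright, 0.498 and 0.624 in CD41/CD9-negative, 0.227 and 0.250 in CD48bright, and 0.406 and 0.288 in CD48dim. CD34bright had the least D cyclin message per kinase message and CD41/CD9-negative the most, with no overlap between any of these populations. These ratios are given without a test, and they rest on the transcript lengths used for the deposited TPM.

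By TPM the kinases were the 2 most abundant of the 10 messages in every library, and their orders over the populations differed. Cdk4 (chromosome 10, 127063534 to 127067920, plus strand) had 369.7 and 356 CPM in CD34bright, 236 and 230.1 CPM in CD41/CD9-negative, 239.8 and 270.3 CPM in CD48bright, and 160.2 and 134 CPM in CD48dim. No neighbouring populations in this order overlapped, and the libraries of a population lay close together. CD34bright over CD48dim was 1.303 ± 0.29 on the log2 scale, with an adjusted p of 0.0773 from edgeR and of 0.0258 with the replicate block. CD41/CD9-negative over CD48dim was 0.66 ± 0.29 (adjusted p = 0.248, edgeR), and CD48bright over CD48dim was 0.79 ± 0.29 (adjusted p = 0.265, edgeR). Over all populations the adjusted p of Cdk4 was 0.141 with edgeR and 0.0550 with the block. On the other strand, Tspan31 shares 641 of 3249 exon bases with Cdk4 in the GENCODE annotation. The deposited Cdk4 counts were whole in every library, so none was split with Tspan31. The part of Tspan31 reads in them was not tested. Tspan31, with 7171 counts in all against 28742 for Cdk4, had 55.1 to 90.9 CPM in the other libraries and was also lowest in CD48dim, at 29.9 and 49.3 CPM.

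Cdk6 (chromosome 5, 3341485 to 3531008, plus strand), the kinase that also acts on transcription in blood progenitors, had 628 and 623 CPM in CD34bright, 358 and 238 CPM in CD41/CD9-negative, 554 and 441 CPM in CD48bright, and 409 and 566 CPM in CD48dim. It was highest in both CD34bright and lowest in both CD41/CD9-negative libraries, and CD48bright and CD48dim overlapped. CD34bright over CD41/CD9-negative was 1.07 ± 0.35 on the log2 scale and did not pass (adjusted p = 0.267, edgeR). The test over all populations gave an adjusted p of 0.363. Cdk4 and Cdk6 were the 2 of the 10 genes that were highest in both CD34bright libraries, which held for 4.86% of all genes. Cdk6 alone was lowest in both CD41/CD9-negative libraries, which held for 6.29%.

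Per length, the balance of the kinases differed between libraries. The ratio of Cdk6 TPM to Cdk4 TPM was 0.839 and 0.865 in CD34bright, 0.748 and 0.513 in CD41/CD9-negative, 1.14 and 0.811 in CD48bright, and 1.27 and 2.10 in CD48dim. Cdk6 exceeded Cdk4 in both CD48dim libraries and in CD48bright replicate 1, and Cdk4 exceeded Cdk6 in the other 5. The ratio has no test here, and it rests on deposited transcript lengths of 2470 bases for Cdk6 and 1346 for Cdk4. The GENCODE exon bases of these genes are 13989 and 3249, so which kinase lies above the other depends on the lengths used.

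**Figure D2:**
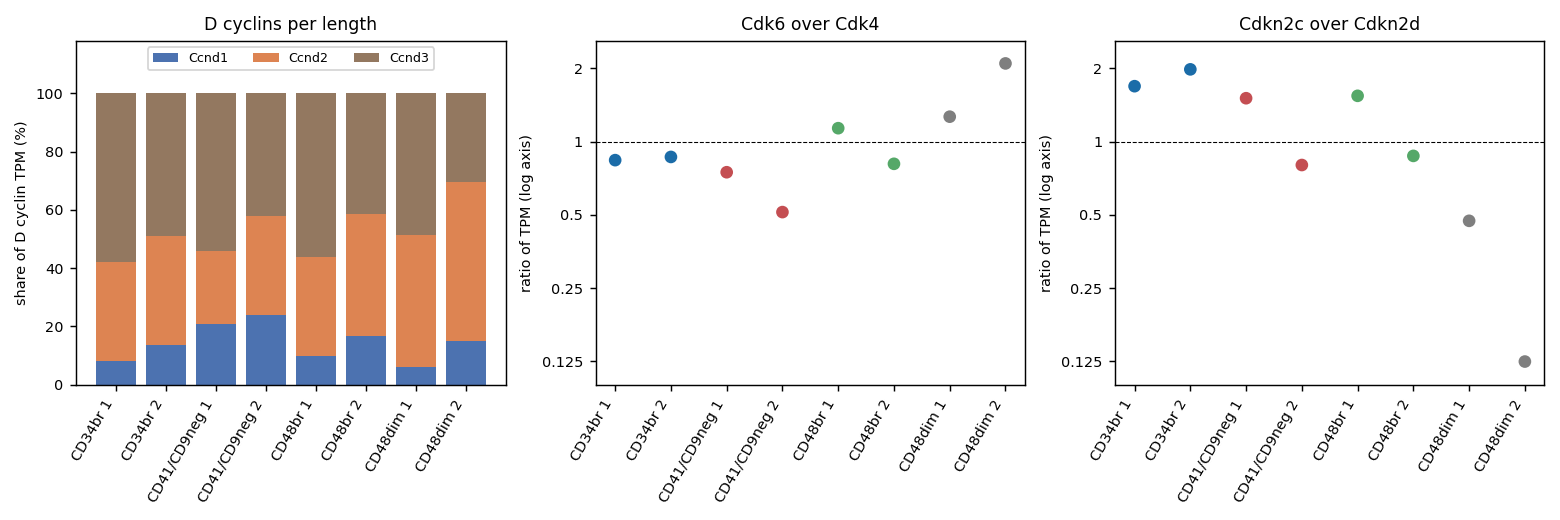
Deposited TPM values compared between genes, library by library: left, the share of Ccnd1, Ccnd2 and Ccnd3 in their summed TPM (%). Middle and right, the ratios of Cdk6 to Cdk4 and of Cdkn2c to Cdkn2d on log axes, with a dashed line at 1. Both CD48dim libraries have Cdk6 above Cdk4 and Cdkn2c below Cdkn2d.

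Of the CIP/KIP inhibitors, Cdkn1a had the largest log2 fold change among the 10 genes. Cdkn1a (chromosome 17, 29090976 to 29100727, plus strand) encodes p21, which is switched on by p53 and by differentiation signals. It had 45.9 and 47.1 CPM in CD34bright, 101 and 33.7 CPM in CD41/CD9-negative, 31.2 and 33.8 CPM in CD48bright, and 6.46 and 7.70 CPM in CD48dim. Both CD48dim libraries lay below every other library, and CD41/CD9-negative overlapped CD34bright and CD48bright because its libraries were far apart. The CD48dim values rest on 88 and 56 counts.

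Cdkn1a in CD41/CD9-negative over CD48dim was the one pair difference of the 10 genes called by edgeR. Its log2 fold change was 3.26 ± 0.55 (SE), with means of 67.6 ± 47.9 CPM in CD41/CD9-negative and 7.08 ± 0.873 CPM in CD48dim (SD, n = 2 each) and an adjusted p of 0.0147. In that comparison 4.02% of all genes were called, 1.98% as higher. Cdkn1a was higher in both library numbers, by 3.97 among the libraries numbered 1 and by 2.13 among those numbered 2, on the log2 scale. The call was lost without CD41/CD9-negative replicate 1 (2.28, adjusted p = 0.108, edgeR), with limma-voom (adjusted p = 0.0514) and in a fit of these 4 libraries alone (adjusted p = 0.0911). That replicate, with the highest Cdkn1a, also had 702 CPM of the summed neutrophil genes, against 49.9 CPM in CD41/CD9-negative replicate 2. Their part in the Cdkn1a value was not tested.

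CD34bright over CD48dim was 2.72 ± 0.54 for Cdkn1a, with an adjusted p of 0.0575 from edgeR and of 0.0255 with the replicate block. CD48bright over CD48dim was 2.20 ± 0.53, with an adjusted p of 0.136 from edgeR and of 0.0686 with the block. Within library numbers these differences were 2.83 and 2.61 for CD34bright, and 2.27 and 2.14 for CD48bright. Over all populations the adjusted p of Cdkn1a was 0.0521 with edgeR and 0.0312 with the block.

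Cdkn1b (chromosome 6, 134920401 to 134925513, plus strand), the gene of p27, had 18.5 and 25.5 CPM in CD34bright, 28.6 and 32.6 CPM in CD41/CD9-negative, 19.6 and 31.1 CPM in CD48bright, and 8.74 and 26.4 CPM in CD48dim. Every neighbouring population in its order overlapped, and the adjusted p over all populations was 0.853 (edgeR). Per length, the ratio of Cdkn1a TPM to Cdkn1b TPM was 3.23 and 2.39 in CD34bright, 4.60 and 1.34 in CD41/CD9-negative, 2.07 and 1.41 in CD48bright, and 0.958 and 0.378 in CD48dim. In CD48dim alone was Cdkn1b the more abundant of the pair.

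The INK4 inhibitors differed in which populations were at the ends of their orders. Cdkn2c (chromosome 4, 109660876 to 109667189, minus strand), the gene of p18, had 31.5 and 42.6 CPM in CD34bright, 43.3 and 25.5 CPM in CD41/CD9-negative, 28.1 and 16.9 CPM in CD48bright, and 11.4 and 7.28 CPM in CD48dim. Both CD48dim libraries were below all others, and the other populations overlapped their neighbours. CD34bright over CD48dim was 1.98 ± 0.51 on the log2 scale, with an adjusted p of 0.102 from edgeR and of 0.0391 with the block. CD41/CD9-negative over CD48dim was 1.88 ± 0.51, with an adjusted p of 0.0795 from edgeR and of 0.0411 with the block. CD48bright over CD48dim was 1.27 ± 0.50 (adjusted p = 0.294, edgeR). Over all populations the adjusted p was 0.173 with edgeR and 0.0831 with the block.

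Cdkn2d (chromosome 9, 21288410 to 21291407, minus strand), the gene of p19, had 17.7 and 16.6 CPM in CD34bright, 27.7 and 33.7 CPM in CD41/CD9-negative, 18.0 and 21.9 CPM in CD48bright, and 27.2 and 67.9 CPM in CD48dim. Its CD34bright libraries were below all others, which 4.18% of all genes shared, and CD48dim overlapped CD41/CD9-negative. CD34bright over CD48dim was -1.47 ± 0.49 (adjusted p = 0.166, edgeR) and CD48bright over CD48dim was -1.25 ± 0.49 (adjusted p = 0.295, edgeR). Both rest largely on CD48dim replicate 2: without it they were -0.66 and -0.44. The test over all populations gave an adjusted p of 0.294 (edgeR).

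The ratio of Cdkn2c TPM to Cdkn2d TPM was 1.69 and 1.98 in CD34bright, 1.51 and 0.801 in CD41/CD9-negative, 1.54 and 0.874 in CD48bright, and 0.472 and 0.125 in CD48dim. Both CD48dim libraries had the lowest ratios, and CD34bright had the highest. TPM also moves with the mean length of the transcripts estimated for Cdkn2c, which was 1323 and 1567 bases in CD34bright, 1307 and 1214 in CD41/CD9-negative, 1281 and 1148 in CD48bright, and 1151 and 1127 in CD48dim. The other INK4 genes, Cdkn2a and Cdkn2b, did not pass the filter, with at most 0.275 CPM for Cdkn2a and 0 counts for Cdkn2b in every library.

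Cdk4, Cdkn1a and Cdkn2c were lowest in both CD48dim libraries, 3 of 10, and 11.6% of all genes were. None of the 10 was highest in both CD48dim libraries, where 11.6% of all genes were, and none was at either extreme in both CD48bright libraries, where 1.43% were lowest and 1.38% highest.

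**Figure D3:**
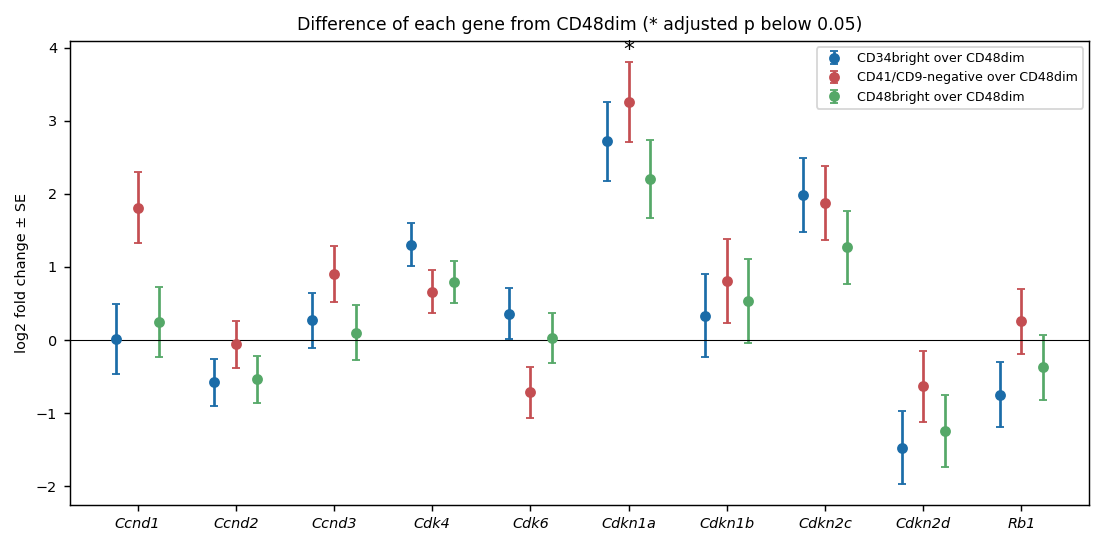
Log2 fold change of each gene over CD48dim (vertical axis) for CD34bright, CD41/CD9-negative and CD48bright, with bars of 1 standard error, from the edgeR fit of all 8 libraries. The asterisk marks the one difference with an adjusted p below 0.05, Cdkn1a in CD41/CD9-negative over CD48dim at 3.26. The 3 comparisons share the CD48dim libraries.

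Rb1 (chromosome 14, 73183673 to 73325822, minus strand), the target of the cyclin D kinases, had 59.5 and 79.2 CPM in CD34bright, 129.9 and 149 CPM in CD41/CD9-negative, 74.7 and 105 CPM in CD48bright, and 66.3 and 167 CPM in CD48dim. All neighbours in its order overlapped, and the CD48dim libraries lay on either side of both CD41/CD9-negative and both CD48bright values. CD34bright over CD41/CD9-negative was -1.01 ± 0.45 on the log2 scale and did not pass (adjusted p = 0.497, edgeR), and the test over all populations gave an adjusted p of 0.547. On the other strand Lpar6 shares 408 of the 6015 exon bases of Rb1. Lpar6 had 7328 counts against 10474 for Rb1, and the part of its reads in the Rb1 counts was not tested. Its levels were 37.5 and 74.8 CPM in CD34bright, 85.7 and 137 CPM in CD41/CD9-negative, 42.8 and 86.2 CPM in CD48bright, and 38.2 and 66.2 CPM in CD48dim, highest in CD41/CD9-negative replicate 2 where Rb1 had its second highest value. Rcbtb2 shares 488 exon bases with Rb1 and had 4395 counts.

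By pair of populations, CD34bright over CD41/CD9-negative had 0 of the 10 genes called by edgeR, where 0.842% of all genes were, and 3 at an unadjusted p below 0.05 (Ccnd1, Cdk6 and Rb1), against 9.91% of all genes. DESeq2 and the block each called Ccnd1 in that pair, with 4.74% and 2.02% of all genes called, and limma-voom called none, with 1.11%. Ccnd1 and Cdk6 were called without CD48dim replicate 1 and without CD48dim replicate 2, with 5.44% and 5.46% of all genes called. CD34bright over CD48bright had 0 called by edgeR, against 0% of all genes, and 0 at an unadjusted p below 0.05, against 1.99%. DESeq2 and limma-voom also called 0 of the 10 in it, with 0.281% and 0% of all genes called. CD34bright over CD48dim had 0 called by edgeR, against 0.577% of all genes, and 4 at an unadjusted p below 0.05 (Cdk4, Cdkn1a, Cdkn2c and Cdkn2d), against 19%. DESeq2 and the block each called Cdk4, Cdkn1a and Cdkn2c in it, with 9.77% and 5.18% of all genes called, and limma-voom called none, with 0.342%. Without CD48dim replicate 1 it had 5 called, with 28.4% of all genes, and without replicate 2 it had 1, with 4.84%.

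CD41/CD9-negative over CD48bright had 0 of the 10 called by edgeR, DESeq2 and limma-voom, against 0.212%, 2.78% and 0.288% of all genes, and 1 (Ccnd1) at an unadjusted p below 0.05, against 7.12%. Ccnd1 was called there without CD48dim replicate 1, with 3.09% of all genes, and without replicate 2, with 3.08%. CD41/CD9-negative over CD48dim had Cdkn1a called, and 5 at an unadjusted p below 0.05 (Ccnd1, Ccnd3, Cdk4, Cdkn1a and Cdkn2c), against 19.5% of all genes. DESeq2 and the block each called Ccnd1, Cdkn1a and Cdkn2c in it, with 11.7% and 7.32% of all genes called, and limma-voom called Ccnd1 and not Cdkn1a, with 3.57%. Leaving out CD48dim replicate 1 gave 5, with 23.9% of all genes called, and leaving out CD48dim replicate 2 gave 3, with 10.4%. Leaving out replicate 1 of CD41/CD9-negative gave 0, with 0.573%. CD48bright over CD48dim had 0 called by edgeR, against 0.387% of all genes, 4 at an unadjusted p below 0.05 (Cdk4, Cdkn1a, Cdkn2c and Cdkn2d), against 14.6%. DESeq2 called 1 (Cdkn1a), with 5.76% of all genes, and limma-voom called 0, with 0.0379%. It had 3 without CD48dim replicate 1, with 23.3% of all genes called, and 1 without replicate 2, with 2.92%. The median log2 fold change of the 10 genes over CD48dim was 0.30 for CD34bright, 0.74 for CD41/CD9-negative and 0.18 for CD48bright, against -0.07, -0.06 and -0.03 over all genes. The pairs share libraries and were not compared with one another.

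Of 20 partners of these genes at the passage from G1 to S phase (cyclins E, CDK2, the E2F and DP factors, the other pocket proteins, the remaining inhibitors, and regulators such as Myc and Skp2), 18 were tested. None was called by edgeR in any of the 7 tests, with 1 at an unadjusted p below 0.05 in the test of any difference and 0 to 4 in the pairs. DESeq2 called Cks1b, which helps SKP2 mark p27 for destruction, in CD34bright over CD48dim and none elsewhere, and limma-voom called none. Cks1b had 206 and 135 CPM in CD34bright, 92.5 and 151 CPM in CD41/CD9-negative, 138 and 141 CPM in CD48bright, and 68.9 and 75.0 CPM in CD48dim, and was named after its values were seen. Without CD48dim replicate 1 edgeR called 3 in the test of any difference, 4 for CD34bright, 5 for CD41/CD9-negative and 3 for CD48bright over CD48dim, where it called 24.7%, 28.4%, 23.9% and 23.3% of all genes. Without CD48dim replicate 2 it called 0, 1, 2 and 1, where it called 9.11%, 4.84%, 10.4% and 2.92% of all genes. The median log2 fold change of the 18 over CD48dim was 0.02 for CD34bright, 0.27 for CD41/CD9-negative and 0.16 for CD48bright, beside the medians of all genes given above. In 4 of the 18 both CD48dim libraries were the lowest, against 11.6% of all genes.

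Genes of DNA replication and of mitosis, which act after this switch, were set beside the 10. Of 18 genes of DNA replication, all 18 had a positive log2 fold change over CD48dim for CD34bright, CD41/CD9-negative and CD48bright alike, with medians of 1.01, 0.88 and 1.02. In 12 of the 18 both CD48dim libraries were the lowest, against 11.6% of all genes. The edgeR test called Ccna2, cyclin A, which works with CDK2 in S phase, and Rrm2, a subunit of the enzyme that makes deoxynucleotides. Ccna2 had 345 and 389 CPM in CD34bright, 250.2 and 303 CPM in CD41/CD9-negative, 219 and 323 CPM in CD48bright, and 95.4 and 69.0 CPM in CD48dim. It passed the test of any difference (adjusted p = 0.0465, edgeR), CD34bright over CD48dim at 2.16 ± 0.35 (adjusted p = 0.0374) and CD41/CD9-negative over CD48dim at 1.75 ± 0.34 (adjusted p = 0.0264). Rrm2 had 169 and 166 CPM in CD41/CD9-negative and 58.5 and 35.0 CPM in CD48dim, a difference of 1.84 ± 0.38 on the log2 scale (adjusted p = 0.0322, edgeR). The counts of called replication genes for CD34bright, CD41/CD9-negative and CD48bright over CD48dim were 1, 2 and 0. They were 4, 7 and 2 with the replicate block, where 5.18%, 7.32% and 1.35% of all genes were called. Without CD48dim replicate 1 they were 14, 11 and 13, where 28.4%, 23.9% and 23.3% of all genes were called, and without CD48dim replicate 2 they were 3, 4 and 1, where 4.84%, 10.4% and 2.92% were. The 4 libraries of each pair alone gave 0 in each, where 0%, 1.02% and 0% of all genes were called. The calls of Ccna2 and Rrm2 over CD48dim were lost when a CD34bright or a CD41/CD9-negative library was left out. When a CD48bright library was left out, both stayed in CD41/CD9-negative over CD48dim, and Ccna2 was lost in CD34bright over CD48dim. Each of these fits left a lone library in a population and called a smaller share of all genes in these pairs.

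Of 18 genes of mitosis, all 18 had a positive log2 fold change for CD34bright over CD48dim, with a median of 1.69. For CD41/CD9-negative and for CD48bright over CD48dim 16 of 18 did, with medians of 1.05 and 1.00. Both CD48dim libraries were the lowest in 12 of the 18, against 11.6% of all genes. CD34bright over CD48dim had 5 called by edgeR, all higher: Ccnb1 and Ccnb2, the B cyclins, Cdk1, their kinase, Aurkb, a kinase of chromosome segregation, and Ube2c, which marks proteins for destruction at the end of mitosis. Ccnb1 had 181 and 179 CPM in CD34bright, 91.0 and 75.8 CPM in CD41/CD9-negative, 81.5 and 64.8 CPM in CD48bright, and 27.9 and 35.0 CPM in CD48dim. The populations ran in that order without overlap apart from CD41/CD9-negative and CD48bright. Its log2 fold change was 2.52 ± 0.33 for CD34bright over CD48dim (adjusted p = 0.0289, edgeR) and 1.41 ± 0.32 for CD41/CD9-negative over CD48dim (adjusted p = 0.0434, edgeR). CD34bright over CD48dim was 2.54 for Ube2c, 2.23 for Cdk1, 1.93 for Aurkb and 1.75 for Ccnb2. The test of any difference called Ccnb1, Cdk1 and Aurkb. The counts of called mitosis genes for CD34bright, CD41/CD9-negative and CD48bright over CD48dim were 5, 1 and 0. They were 12, 4 and 3 with the replicate block, 13, 10 and 10 without CD48dim replicate 1, and 14, 5 and 3 without CD48dim replicate 2, beside the shares of all genes given for the replication genes under the same settings. The 4 libraries of each pair alone gave 0 in each. Mki67 and Cenpe, named after their values were seen, had their highest level of all libraries in CD48dim replicate 2, at 2916 and 327 CPM, and their lowest in CD48dim replicate 1, at 959 and 166 CPM. Of the calls of mitosis genes over CD48dim, only that of Ccnb1 in CD34bright stayed when a CD48bright library was left out. None stayed when a CD34bright or a CD41/CD9-negative library was left out. These fits too called a smaller share of all genes in these pairs. The difference between these lists and the G1 to S partners was not tested.

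**Figure D4:**
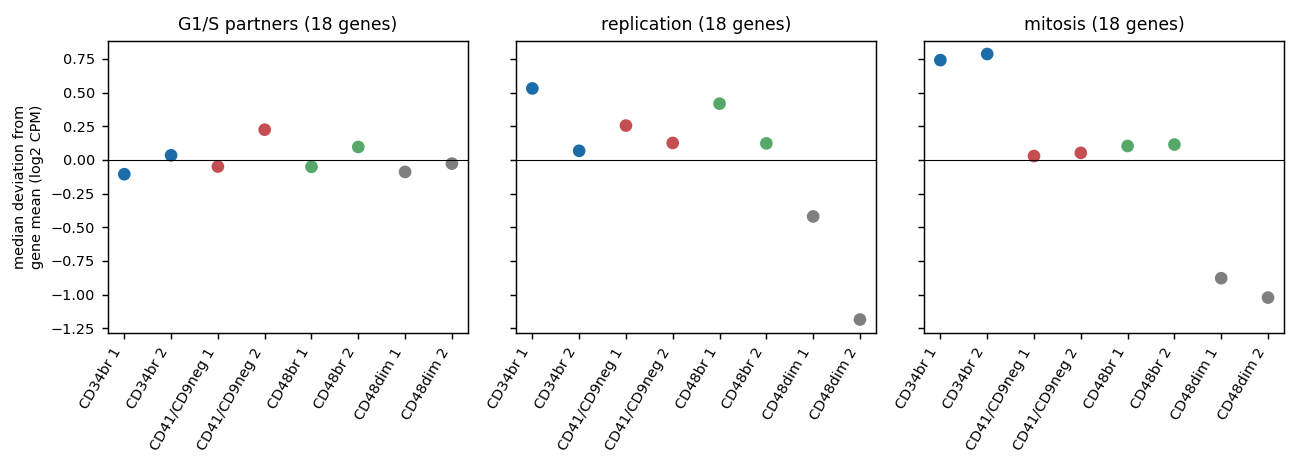
Median deviation of each list from the gene's own mean over the 8 libraries (log2 CPM, vertical axis), for the G1 to S partners, the replication genes and the mitosis genes, 18 genes each. For mitosis CD34bright lies at 0.74 and 0.79 and CD48dim at -0.88 and -1.02. For replication CD48dim lies at -0.42 and -1.19, and for the partners at -0.09 and -0.03.

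Because Cdkn1a is a classic target of p53, the gene of p53 (Trp53) and 11 other known targets were looked at beside it. None of the 12 was called by edgeR in any of the 7 tests, with 1 at an unadjusted p below 0.05 in the test of any difference and 0 to 2 in the pairs. DESeq2 called Zmat3, which encodes an RNA-binding protein, in the test of any difference and in each pair with CD48dim, and the replicate block called it in the test of any difference and in CD34bright over CD48dim. Limma-voom called none. Zmat3 had 12.4 and 17.8 CPM in CD34bright, 33.4 and 20.5 CPM in CD41/CD9-negative, 20.2 and 9.60 CPM in CD48bright, and 53.7 and 108 CPM in CD48dim. Both CD48dim libraries were the highest, whereas for Cdkn1a both were the lowest. Zmat3 was named after its values were seen. Without CD48dim replicate 1 edgeR called Zmat3 and Trp53inp1 in the test of any difference, and without CD48dim replicate 2 it called Trp53inp1. In 1 of the 12, Btg2, both CD48dim libraries were the lowest, as they were for Cdkn1a and for 11.6% of all genes. Btg2 had 119 and 82.6 CPM in CD48dim and 147 to 301 CPM elsewhere, and was named after its values were seen. The median log2 fold change of the 12 over CD48dim was 0.06 for CD34bright, 0.26 for CD41/CD9-negative and 0.23 for CD48bright.

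The libraries numbered 2 differed from those numbered 1 in several of the 10 genes. Ccnd1, Cdkn1b and Rb1 were higher in the library numbered 2 in all 4 populations, as 14.8% of all genes were, and Ccnd3 was lower in all 4, as 16.6% of all genes were. On the log2 scale the difference was largest in CD48dim for Ccnd1 (1.01), Ccnd3 (-0.97), Cdkn1b (1.59), Cdkn2d (1.32) and Rb1 (1.33). Malat1, a nuclear RNA, was also higher in each library numbered 2, and in CD48dim it had 38947 CPM in replicate 2 and 10325 CPM in replicate 1. Genes of ribosomal proteins took 2.4% of counts in CD48dim replicate 2 and 9.39% in CD48dim replicate 1. The labels do not say what the library numbers stand for, and the part of RNA quality in these values was not tested.

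**Figure D5:**
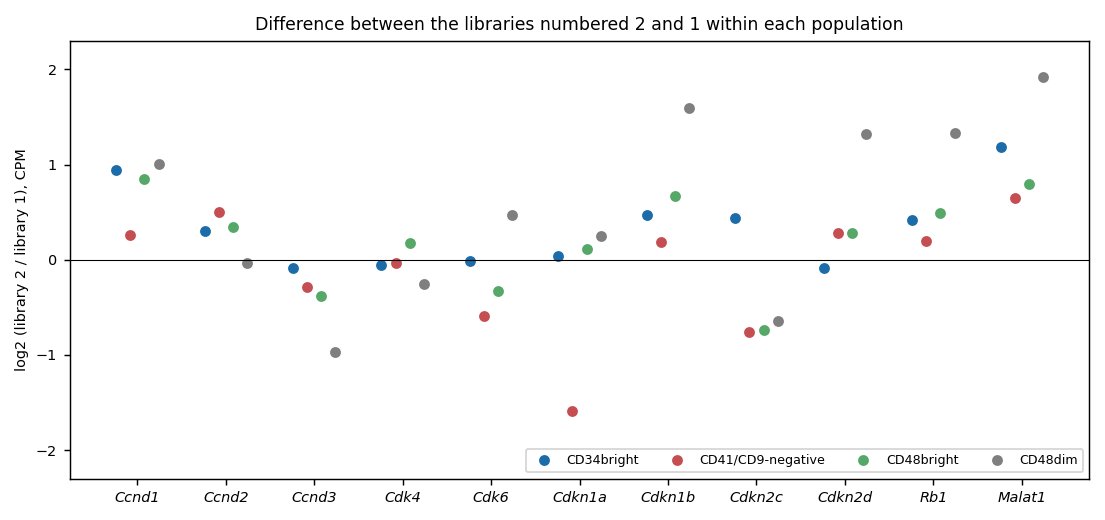
Difference between the libraries numbered 2 and 1 within each population (log2 ratio of CPM, vertical axis) for the 10 genes and for Malat1. Points above 0 are higher in the library numbered 2. Ccnd1, Cdkn1b and Rb1 lie above 0 in all 4 populations, and Ccnd3 below 0 in all 4.

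The genes whose levels over the 8 libraries were most like those of Cdkn1a, Ccnd1 and Cdk4, the 3 members with the smallest p in the test of any difference, were found by Pearson's correlation of log2 CPM. For Cdkn1a they included Kcng1, a potassium channel subunit (r = 0.969), and Map3k5, a stress kinase (r = 0.961). For Ccnd1 the closest were Map4, a microtubule protein (r = 0.993), Tcf4, a transcription factor (r = 0.970), and Zmiz1, a transcriptional coregulator (r = 0.970). For Cdk4 they were Mboat1, an acyltransferase (r = 0.994), Bub3, of the spindle checkpoint (r = 0.991), and Aurkb (r = 0.987). The 8 points of each correlation share populations and library numbers, and the genes were picked as the closest of 13177, so these values are a description.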

How the data were processed

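Total RNA from the sorted cells was amplified to cDNA before library preparation, per the labels' protocols, so reads carry no strand. The deposited expected counts and TPM per gene are in the layout of RSEM, per the file headers, and TPM was used only to compare genes per length. The submitters' processing notes name the build mm10 (GRCm38) with RSEM 1.3.2, STAR 2.7.2a and edgeR 3.30.3. The sources used here state neither settings nor annotation.

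Expected counts were rounded (up to 2.2% per library were not whole, none of them for the 10 genes). Of 24411 genes, 13177 passed filterByExpr. Libraries were scaled by TMM and tested with edgeR 4.0.16 (R 4.3.3) by the quasi-likelihood F-test, two-sided, in 1 fit of 8 libraries with 4 residual and 5.46 prior degrees of freedom and a biological coefficient of variation of 49.8%. The standard error is the log2 fold change over the square root of F. The 7 tests were any difference and 6 pairs. Alternatives used DESeq2 1.42.0, limma-voom (limma 3.58.1), RLE scaling, no filter, a replicate block, each pair alone and each library left out. The scripts were tested on simulated data, with limits for passing set only at a lower coefficient of variation than that of these data.

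Libraries with the same number deviated together in all 6 pairs of populations (correlations over genes of 0.112 to 0.222), so the numbers were taken to pair them. This rests on the data, since the labels do not say what the numbers mark. The 10 genes and the lists were chosen with earlier results of these data known. Of the lists of partners, replication, mitosis and p53 targets, genes called in any of the 7 tests are named. Those of the cell type lists are named in part. For the 3 of the 10 with the smallest p, the 3 genes most alike were sought. The second deposited count table of each library was not used here. Gene positions and overlaps come from GENCODE annotation of GRCm38, and promoter sequences from RefSeq (GRCm38.p6). The annotation behind the deposited counts is not stated, and an overlap in GENCODE need not lie in the transcripts counted. The number of counts limits the precision of low genes.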

Additional observations from a re-analysis of the deposited data

How the results depend on the processing

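Counts of the 10 genes called moved with the setting in all comparisons except CD34bright over CD48bright, which had 0 under every setting run. The 17 pair differences followed were those with an unadjusted p below 0.05 in the main edgeR fit. None of their 238 values changed sign, which this choice and the shared libraries made likely beforehand. Where the report gives no share of all genes called under a setting, it follows the count. In the test of any difference 0 were called in the fit as reported, 4 with DESeq2, 3 with no filter on low counts (8.69%), 2 with the replicate block and 0 to 7 with a library left out (0.226% to 24.7%). In CD34bright over CD41/CD9-negative these were 0, 1, 1 (2.88%), 1 and 0 to 2 (0.0212% to 5.46%), with 3 in the pair alone (8.7%). In CD34bright over CD48dim they were 0, 3, 3 (5.51%), 3 and 0 to 5 (0% to 28.4%), with 0 in the pair alone (0%). In CD41/CD9-negative over CD48bright, no filter gave 1 (1.63%), the pair alone 1 (2.47%) and leaving out a library 0 to 1 (0% to 3.09%). In CD41/CD9-negative over CD48dim, 1 was called as reported, 3 with DESeq2, 3 with no filter (6.44%), 3 with the block, 0 in the pair alone (1.02%) and 0 to 5 with a library left out (0.573% to 23.9%). In CD48bright over CD48dim, DESeq2 gave 1, no filter 1 (3.18%) and leaving out a library 0 to 3 (0.0283% to 23.3%). The highest counts with a library left out all came without a CD48dim library. The cause was not tested. The replicate block lost no call of the 10 genes.

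RLE scaling and limma-voom left each count as reported, although in CD41/CD9-negative over CD48dim limma-voom called Ccnd1 in place of Cdkn1a. Where a library was left out, the lone library of that population was assumed to vary like the others. The lowest counts, 53 for Cdkn2c and 56 for Cdkn1a in CD48dim replicate 2, make these values the least precise.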
